A study of Mus musculus with 9 samples.

Results

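The membrane-spanning 4A genes Ms4a6b, Ms4a4b, Ms4a4c, Ms4a6c, Ms4a6d and Ms4a7 were described in sorted mouse group 2 innate lymphoid cells (ILC2s), lymphocytes of barrier tissues that make type 2 cytokines. These 6 of the 23466 genes in the count table were taken by symbol. The set was chosen by the levels of Ms4a6b, which an earlier fit of these data had called higher in uninjured meninges than in lung. Values in that contrast are therefore given as a description, without a test. The 9 libraries came from wild-type C57BL/6 mice aged 10 weeks, and ILC2s were sorted as live CD45+ lineage-negative cells carrying St2 and Thy1. There were 3 libraries each of brain meninges of uninjured mice, brain meninges collected 24 h after the spinal cord was contused with a force of 80 kdyn, and lung from mice without injury. Per the labels 5 mice were pooled for a group. Whether libraries came from separate pools is not said, so the p-values rest on a spread between libraries that may be technical. No group was labelled as sham-operated, so contusion and surgery cannot be told apart.

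Ms4a proteins cross the membrane several times and have both ends in the cytoplasm. The best known members are CD20 of B cells, encoded by Ms4a1, and the beta chain of the high-affinity IgE receptor, encoded by Ms4a2. Ms4a4b and Ms4a6b are known from T cells, where Ms4a4b binds the costimulatory receptor GITR. Ms4a4c is known to be induced by interferon. Ms4a6c and Ms4a6d are known from myeloid cells, and Ms4a7 marks macrophages, among them those of the brain's borders.

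The genes lie in 1 cluster on chromosome 19, in the order Ms4a7, Ms4a4c, Ms4a4b, Ms4a6c, Ms4a6b and Ms4a6d in GENCODE M21. Ms4a4c, Ms4a4b, Ms4a6c and Ms4a6b are on the plus strand, and Ms4a7 and Ms4a6d are on the minus strand. RefSeq start regions, 250 bases before to 50 after the start on GRCm38.p6, were at hand for 5 of the 6 genes, with 2 starts for Ms4a7. The 2 pairs of close copies are shown because the start region of each gene is closest to that of its partner, while Ms4a6b and Ms4a6c stand far apart in level. They are chr19:11518309-11518608 for Ms4a6b, chr19:11469118-11469417 for Ms4a6c, chr19:11443308-11443607 for Ms4a4b and chr19:11407411-11407710 for Ms4a4c, all on the plus strand. Capitals mark the longest runs that both members of a pair share exactly, 1 run for Ms4a6b and Ms4a6c and 2 of equal length for Ms4a4b and Ms4a4c.
Ms4a6b: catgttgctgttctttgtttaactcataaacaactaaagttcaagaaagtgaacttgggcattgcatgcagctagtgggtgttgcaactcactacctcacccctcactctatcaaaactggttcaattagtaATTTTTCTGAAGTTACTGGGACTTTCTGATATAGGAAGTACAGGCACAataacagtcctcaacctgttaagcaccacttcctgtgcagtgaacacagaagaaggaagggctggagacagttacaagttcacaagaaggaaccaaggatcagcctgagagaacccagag
Ms4a6c: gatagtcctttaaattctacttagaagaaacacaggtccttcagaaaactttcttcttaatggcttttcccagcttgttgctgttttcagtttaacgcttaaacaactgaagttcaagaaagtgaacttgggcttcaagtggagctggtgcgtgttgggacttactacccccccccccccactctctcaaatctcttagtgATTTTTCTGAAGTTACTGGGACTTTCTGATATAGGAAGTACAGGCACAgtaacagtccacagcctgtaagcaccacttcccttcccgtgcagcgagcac
Ms4a4b: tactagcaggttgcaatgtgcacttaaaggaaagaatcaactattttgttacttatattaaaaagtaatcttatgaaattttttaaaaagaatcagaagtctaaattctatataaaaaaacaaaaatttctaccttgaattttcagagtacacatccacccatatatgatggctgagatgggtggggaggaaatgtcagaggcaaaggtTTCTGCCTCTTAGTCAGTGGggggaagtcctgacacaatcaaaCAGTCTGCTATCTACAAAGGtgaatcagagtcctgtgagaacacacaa
Ms4a4c: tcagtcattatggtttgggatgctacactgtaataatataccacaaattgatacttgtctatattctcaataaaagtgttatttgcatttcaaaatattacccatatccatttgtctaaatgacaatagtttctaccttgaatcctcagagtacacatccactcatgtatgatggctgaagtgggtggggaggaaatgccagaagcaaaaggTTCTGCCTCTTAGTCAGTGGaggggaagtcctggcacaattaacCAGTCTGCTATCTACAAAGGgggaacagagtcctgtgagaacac

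In global alignments, the start regions of Ms4a6b and Ms4a6c matched at 192 of 225 aligned bases (85.3%) and shared a run of 48 bases. Those of Ms4a4b and Ms4a4c matched at 230 of 281 (81.9%) and shared 2 runs of 20. The remaining pairs of start regions, including the 2 of Ms4a7, matched at 58.4% to 67.3%. Of 6 motifs searched on both strands, the Ms4a6b region held 1, the ETS-type CAGGAAGT, starting at base 208 and read from the minus strand. This motif occurs in 3.33% of the 32851 RefSeq start regions of the same length. The GATA-type motifs TGATAA and AGATAA, the AP-1 site TGACTCA, the interferon-stimulated response element and the STAT-type TTCNNNGAA had no match in that window. They occur in 9.05%, 11.2%, 5.20%, 3.44% and 8.30% of all start regions. None of the 6 motifs had a match in the Ms4a6c, Ms4a4b or Ms4a4c region, and TGATAA had 1 match in 1 of the 2 Ms4a7 regions.

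Close copies can share reads. Of the 50-base words of protein-coding Ms4a6b transcripts, 5.66% also occurred in another Ms4a gene. The share was 6.08% for Ms4a6c, 8.19% for Ms4a4c, 4.19% for Ms4a4b, 2.69% for Ms4a6d and 0 for Ms4a7. Over all genes it was 56.9% for Ms4a6c, with matches in genes outside the family such as Maoa and Mtm1. The sources used here do not say how reads that fit several genes were counted, so the low counts of Ms4a6c and Ms4a4c are uncertain.

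The libraries held 13407277 to 18253462 counts each. Levels are CPM, the usual counts per megacount of a library, after scaling by trimmed means of M values (TMM). A count of 0 in 1 library allows up to 3 counts, or 0.163 to 0.239 CPM, a limit that covers counting error only. Injured meninges 2 stood apart, with the fewest genes with a count (13465, against 15761 to 18452) and the lowest median rank correlation to its own group (0.797, against 0.825 to 0.873 across the others). The 12 ILC2 markers of the fixed list summed to 8063 to 11662 CPM per library, and none was at 0 throughout a group.

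Ms4a6b was the only member above 20 CPM in any library. It stood at 47.8, 78.2 and 105 CPM in uninjured meninges 1, 2 and 3, at 26.9, 47.1 and 29.4 CPM after injury and at 5.53, 1.62 and 14.4 CPM in lung. All 6 meningeal libraries exceeded all 3 lung libraries. The injured libraries lay below the uninjured ones, with injured meninges 2 and uninjured meninges 1 almost level. The counts behind these levels ran from 22 in lung 2 to 1557 in uninjured meninges 3. In bulk libraries, fewer cells with the transcript and less transcript per cell cannot be told apart.

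**Figure D1:**
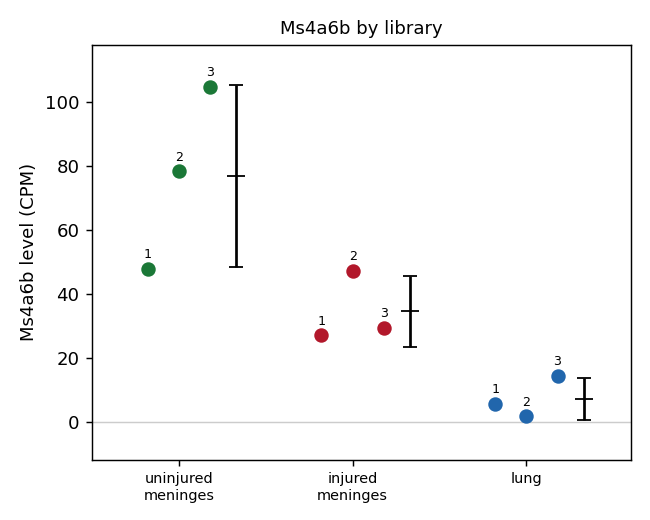
Ms4a6b in CPM (linear axis) for each of the 9 libraries, numbered within their group, with the mean and SD of 3 libraries as the black bar. Uninjured meninges lie at 47.8 to 105, injured meninges at 26.9 to 47.1 and lung at 1.62 to 14.4.

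Group means were 76.9 ± 28.4 CPM in uninjured meninges, 34.5 ± 11.0 after injury and 7.19 ± 6.55 in lung (SD, n = 3 each). The order was thus uninjured meninges, injured meninges, lung. Uninjured meninges against lung gave a log2 fold change of 3.42 ± 0.67 (SE), a 10.7-fold difference. With lung 3 left out, the lung library with most Ms4a6b, it was 4.42. In this contrast 96 of 15117 genes (0.635%) were called at an adjusted p under 0.05 by edgeR, 6 of them (0.0397% of those tested) higher in meninges, and Ms4a6b was 1 of these by its choice. Of all genes tested 7.63% were higher in every uninjured meningeal library than in every lung library, and of the 6 members this held for Ms4a6b alone. The 965 genes higher in every injured meningeal library than in every lung library, 6.38% of those tested, included Ms4a6b. The log2 fold change of injured meninges against lung was 2.26 ± 0.64 (SE). That comparison shares its lung libraries with the one that chose the gene, and no test is given.

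Injury is the contrast that did not choose the genes, although it shares the uninjured meningeal libraries. After contusion Ms4a6b had a log2 fold change of -1.16 ± 0.62 (SE), a 2.23-fold lower fitted level. It did not pass the test across all genes (edgeR, Benjamini-Hochberg adjusted p = 0.62). The lowest uninjured library, at 47.8 CPM, exceeded the highest injured one, at 47.1 CPM. With DESeq2 size factors in place of the trimmed mean these became 47.5 and 48.5, and the groups overlapped. Of all genes tested, 6.79% were lower in every injured than in every uninjured library. Without injured meninges 2 the log2 fold change was -1.45 (edgeR adjusted p = 0.62) and without uninjured meninges 3 it was -0.87 (adjusted p = 0.88). The change was negative in all 15 alternatives and called in none, with adjusted p from 0.47 to 0.88.

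Within the family, Ms4a6b took most Ms4a counts in meninges and a minority in lung. Its share of the counts of all 12 Ms4a genes in the table was 53.9% (95% Wilson interval 51.4% to 56.3%) in uninjured meninges 1, 93.7% (92.2% to 94.9%) in 2 and 86.9% (85.3% to 88.4%) in 3. In injured meninges it was 62.4% (58.8% to 65.8%), 56.1% (53.1% to 59.1%) and 81.4% (78.0% to 84.4%). In lung it was 17.2% (14.2% to 20.7%), 9.32% (6.24% to 13.7%) and 26.5% (23.6% to 29.6%). The shares of injured and uninjured meninges overlapped, and those of lung lay below both. Since the RNA was amplified and reads are not single molecules, these intervals cover counting error alone.

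**Figure D2:**
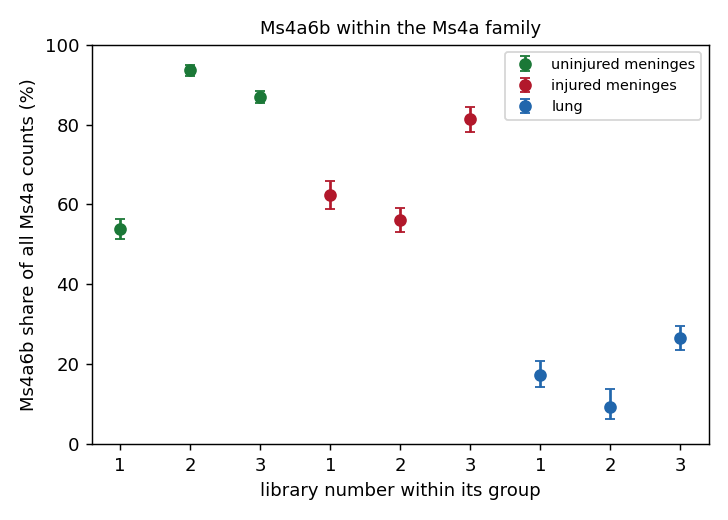
Share of all Ms4a counts that fell on Ms4a6b, in percent, for each library, with its 95% Wilson interval as the bar. The 6 meningeal libraries lie between 53.9% and 93.7%, and the 3 lung libraries between 9.32% and 26.5%.

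Per kilobase of exon, the Ms4a6b level was 17.1 ± 6.33 CPM per kb in uninjured meninges, 7.69 ± 2.45 after injury and 1.60 ± 1.46 in lung (SD, n = 3 each). The length counts every exon annotated for a gene, 8780 bases for Ms4a4b and 1751 for Ms4a4c, whichever transcripts were present. Genes can therefore be compared only roughly. The next member per kilobase in meninges was Ms4a4b, at 0.90 ± 0.75 in uninjured and 0.85 ± 0.75 in injured libraries, within the spread of the other 4 members. In lung the order was not resolved, with Ms4a4c at 1.70 ± 1.35 and Ms4a4b at 1.09 ± 0.24 CPM per kb, both within the spread of Ms4a6b. Ms4a4d, a family gene outside the 6 members, had the highest mean there, at 2.58 ± 2.77 CPM per kb.

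Ms4a4b, the other member known from T cells, had 14.0, 0.97 and 8.87 CPM in uninjured meninges, 4.48, 15.0 and 2.95 after injury and 7.31, 9.94 and 11.5 in lung. The 3 groups overlapped, and uninjured meninges 2 was lowest of all. Its log2 fold change after injury was -0.09 ± 1.07 (SE, edgeR adjusted p = 0.995), and it turned positive when uninjured meninges 1 (0.61), or 1 of injured meninges 1 (0.19) and 3 (0.30), was left out. Against lung, uninjured meninges gave -0.27 ± 1.07, or 0.26 without uninjured meninges 2.

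T and NK cell markers varied across the same libraries. The 15 markers of the fixed list summed to 53.3, 10.3 and 47.0 CPM in uninjured meninges, 52.3, 164 and 2.82 after injury and 36.2, 17.0 and 48.3 in lung. Injured meninges 2, with the most Ms4a4b, had the highest sum, with Cd3g of the T cell receptor complex at 91.9 CPM and the cytotoxic granule gene Nkg7 at 58.6 CPM, which made up most of it. Cd3e had 8.35 CPM there. Several other markers of the list, named after their values were seen, were lower in that library than in another, with the T cell receptor gene Trac at 0.16 CPM (26.3 in injured meninges 1), Cd3d at 0.72 (30.7 in uninjured meninges 3), Cd4 at 1.51 (7.84 in uninjured meninges 1), the NK receptor gene Klrb1c at 1.35 (13.7 in injured meninges 1) and Prf1 at 0. Nkg7 was at 0 in uninjured meninges, and Tbx21 and Gzma were at 0 in injured meninges. None of the 7 tested markers was called after injury or between tissues by edgeR (1 at an unadjusted p under 0.05 in each, Cd3d). The part of T or NK cells in the levels of Ms4a4b was not tested. Cd3g averaged 12.7 ± 13.1, 34.3 ± 50.1 and 6.25 ± 1.25 CPM in the 3 groups in the same order.

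Ms4a4c, the interferon-induced member, had 0.87, 0.39 and 0.13 CPM in uninjured meninges, 0.12, 0 and 2.13 after injury and 5.10, 0.44 and 3.39 in lung. Lung 1 and 3 were the highest libraries, and lung 2 fell within the meningeal range. Its log2 fold change after injury was 0.68 ± 1.94 (SE, edgeR adjusted p = 0.96) and became -2.75 without injured meninges 3, the library that held nearly all of its injured counts. Uninjured meninges against lung gave -2.66 ± 2.05.

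Of 17 tested genes of the fixed type I interferon list, none was called after injury (edgeR, 2 at an unadjusted p under 0.05), with 4 log2 fold changes above 0, 13 below it and a median of -0.90. In uninjured meninges against lung none was called (3 at an unadjusted p under 0.05), 14 were positive and 3 negative, and the median was 1.17. Over all 15117 genes 49.4% and 50.1% were positive, with medians of -0.0047 and 0.0019. Ms4a4c had its highest mean in lung, where the list summed to 152 to 185 CPM, against 285 to 501 in uninjured meninges.

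Ms4a6c, the close copy of Ms4a6b, had 2.61, 0 and 0.74 CPM in uninjured meninges, 0, 0 and 0.69 after injury and 0.12, 0 and 0.32 in lung. Counts never passed 48, against 1557 for Ms4a6b, and 4 of the 9 libraries had none. Its log2 fold change after injury was -2.23 ± 2.32 (SE, edgeR adjusted p = 0.85), and -0.65 without uninjured meninges 1. Without injured meninges 3 no injured count was left, and the fitted -7.12 then depends on the prior count and is no bound. Uninjured meninges against lung gave 2.85 ± 2.38, from 1.26 to 3.99 when single libraries were left out.

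Ms4a6d, a myeloid member, had 1.90, 0.65 and 0 CPM in uninjured meninges, 2.33, 0.56 and 0.38 after injury and 0, 0 and 1.47 in lung. Its log2 fold change after injury was 0.35 ± 2.19 (SE, edgeR adjusted p = 0.99), and it turned negative without injured meninges 1 (-0.86) or uninjured meninges 3 (-0.23). The groups overlapped, with injured meninges 1 highest. Against lung, uninjured meninges gave 0.78 ± 2.20, or -0.59 without uninjured meninges 1. Without lung 3 no lung count was left, and the fitted 6.74 then depends on the prior count and is no bound.

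Ms4a7, the macrophage member, had 1.80, 1.29 and 0 CPM in uninjured meninges, 7.23, 1.03 and 0.44 after injury and 0, 0 and 1.60 in lung. A single library, injured meninges 1, stood above all others. The log2 fold change after injury was 1.49 ± 2.21 (SE, edgeR adjusted p = 0.90) with that library and -0.48 (adjusted p = 0.97) without it. Uninjured meninges against lung gave 0.94 ± 2.20, or 0.27 without uninjured meninges 1. Lung 3 again held all lung counts, and the fitted 7.01 without it is no bound either.

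**Figure D3:**
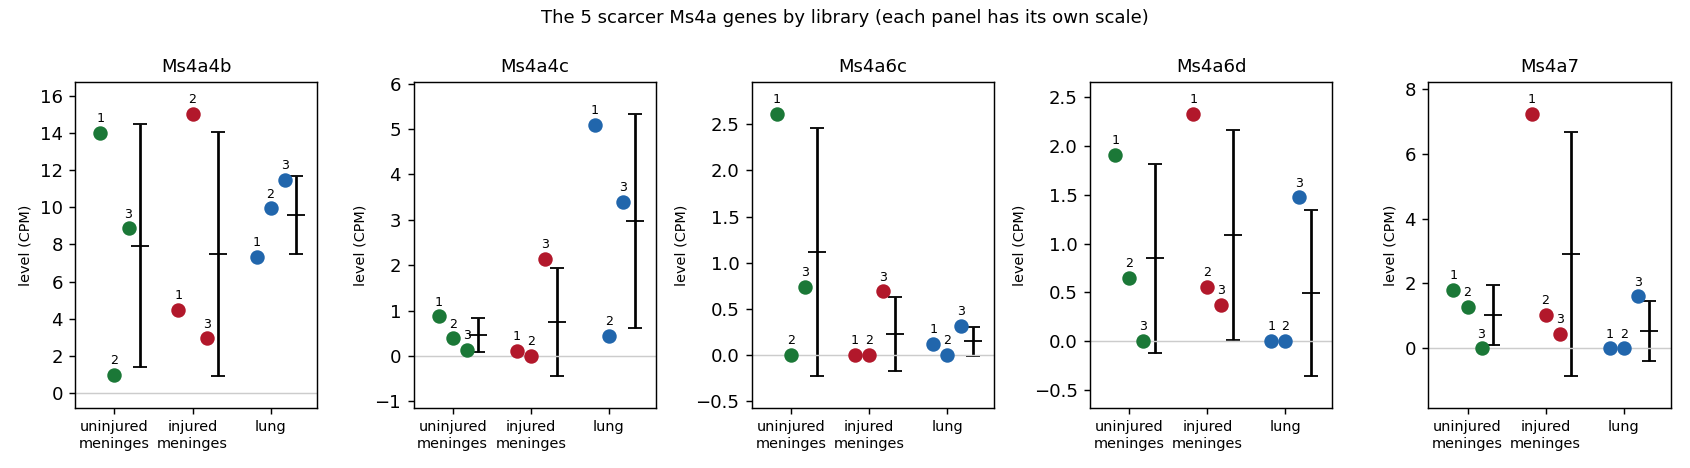
Levels in CPM of Ms4a4b, Ms4a4c, Ms4a6c, Ms4a6d and Ms4a7 in each library, numbered within its group, each panel with its own linear axis, and the mean and SD of 3 libraries as the black bar. The groups overlap in every panel, and Ms4a7 reaches 7.23 in injured meninges 1.

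Monocyte and macrophage markers were measured beside these members. The 16 markers in the table other than Ms4a7 summed to 144, 67.8 and 51.8 CPM in uninjured meninges, 185, 88.2 and 70.1 after injury and 385, 47.2 and 519 in lung. Among the meningeal libraries the sum was highest in injured meninges 1, as were Ms4a7 and Ms4a6d. This library had C1qa, C1qb and C1qc, complement genes of resident macrophages, at 2.93, 9.38 and 5.20 CPM. Of the 16 markers, only C1qa, C1qb, Cd14 and Lyz2 were highest there among the meningeal libraries. In uninjured meninges 1, C1qc had 5.77 CPM and Mertk 12.2 (1.91 in injured meninges 1). In injured meninges 2, Csf1r had 13.8 CPM and Cd68 30.4 (4.9 and 5.56 in injured meninges 1). These examples were named after their values were seen. In lung 1 and 3 most of the sum was Lyz2, the lysozyme gene, at 326 and 425 CPM, while Ms4a7 was at 0 and 1.60. Lyz2 averaged 20.2 ± 19.1, 29.7 ± 36.5 and 253 ± 219 CPM in uninjured meninges, injured meninges and lung. Cd14 was at 0 in uninjured and Aif1 at 0 in injured meninges. Uninjured meninges 3, with the most Ms4a6b, had the lowest sum of the 6 meningeal libraries. In lung the order was the same for both, with Ms4a6b at 1.62, 5.53 and 14.4 CPM in lung 2, 1 and 3. The part of macrophages in the levels of Ms4a7, Ms4a6d and Ms4a6b was not tested. Of 15 tested markers, Ms4a7 included, none was called after injury (3 at an unadjusted p under 0.05) or between tissues (2) by edgeR. After injury 10 of them had a positive and 5 a negative value, with a median of 0.55.

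All 6 members passed the filter on low counts, which supports nothing by itself because a gene can pass through 1 high group. After injury edgeR called 29 of 15117 genes (0.192%) and none of the 6 members, with none at an unadjusted p under 0.05, against 8.94% of all genes. DESeq2 also called none and had none at an unadjusted p under 0.05, but it gave no adjusted p for Ms4a4c, Ms4a6c and Ms4a6d. The log2 fold changes of Ms4a4c, Ms4a6d and Ms4a7 were above 0 and those of Ms4a6b, Ms4a4b and Ms4a6c below it, with a median of 0.13 against -0.0047 over all genes. The standard errors of 1.07 to 2.32 for the 5 members other than Ms4a6b left changes of several-fold undetectable with 3 libraries a group. With its standard error of 0.62, a change of the size fitted for Ms4a6b, 2.23-fold, was also too small to be called.

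**Figure D4:**
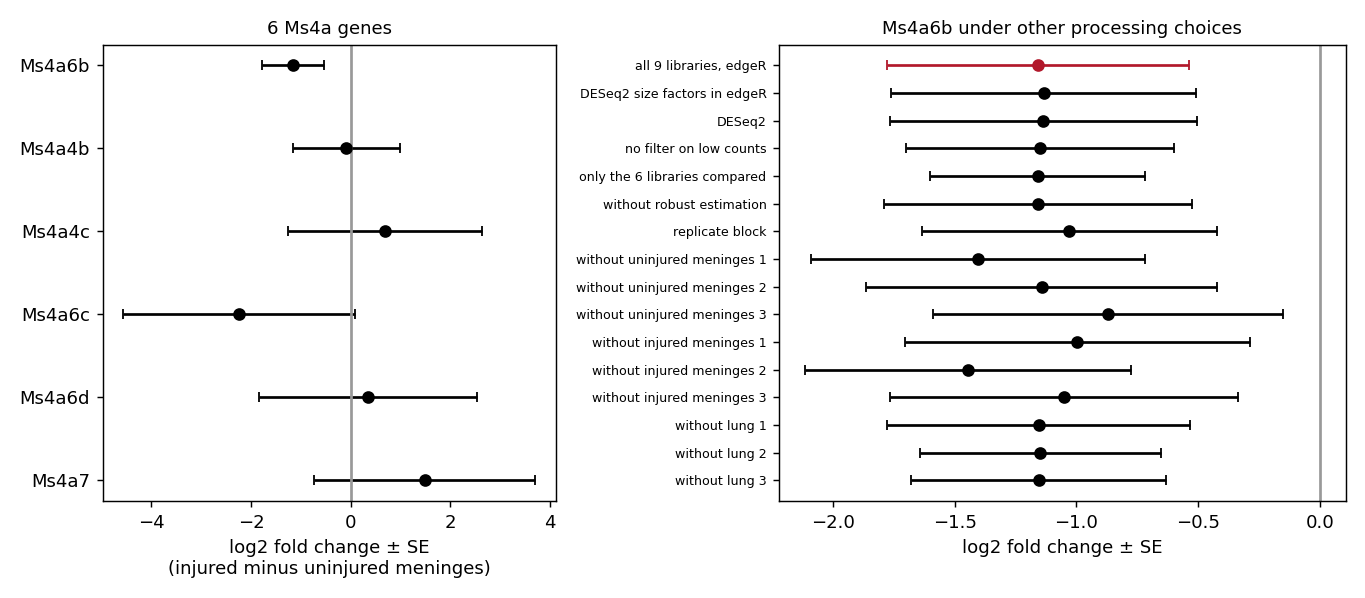
Left, log2 fold changes of injured minus uninjured meninges for the 6 Ms4a genes, with their SE as bars. Right, the same value for Ms4a6b under each alternative, from -1.45 to -0.87, with the value over all 9 libraries (-1.16) in red.

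The other family genes were scarce too, apart from a related pair. Of 19 listed genes, 8 were in the table and 5 were tested, and edgeR called none after injury (1 at an unadjusted p under 0.05) or between tissues (1, where 7.98% of all genes were at such a p). Ms4a1, the CD20 gene, had 8.87, 1.61 and 0.27 CPM in uninjured meninges, 0.60, 17.4 and 0 after injury and 12.04, 3.90 and 11.8 in lung. The other 8 B cell markers summed to 28.2 to 61.0, 3.07 to 57.7 and 30.6 to 74.0 CPM in the 3 groups, with injured meninges 2, which had the most Ms4a1, the highest of the injured libraries. Blk was at 0 in injured meninges. Ebf1, a transcription factor of B cells and their most abundant marker here, averaged 16.6 ± 6.17, 2.94 ± 3.35 and 11.8 ± 6.92 CPM. None of 8 tested B cell markers, Ms4a1 included, was called by edgeR after injury (1 at an unadjusted p under 0.05) or between tissues (0).

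Ms4a2, the IgE receptor chain, had 6.91, 0 and 4.16 CPM in uninjured meninges, 1.25, 2.78 and 0 after injury and 0 in all 3 lung libraries. Between uninjured meninges and lung its edgeR adjusted p was 0.37, and after injury it was 0.90. The 9 other mast cell and basophil markers summed to 31.9, 2.06 and 1.34 CPM in uninjured meninges 1, 2 and 3. Their sums were 1.73 to 8.34 CPM after injury and 16.1 to 32.3 in lung. Gata2, a transcription factor of these cells and their most abundant marker, averaged 4.36 ± 7.49, 4.68 ± 2.96 and 9.44 ± 2.84 CPM. Mcpt8, Cma1, Tpsb2 and Prss34 were at 0 in lung, and Fcer1a, Cma1, Tpsab1, Tpsb2 and Mcpt4 in injured meninges. Tpsab1 and Mcpt4 were at 0 in uninjured meninges. Of the uninjured meningeal libraries, only the first had counts of Mcpt8, Cma1 and Prss34 (70, 14 and 62). Tpsb2 had 2 counts, in uninjured meninges 3. Of 3 tested markers, Ms4a2 included, edgeR called none after injury (1 at an unadjusted p under 0.05) or between tissues (1, Ms4a2).

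Ms4a4d had counts in uninjured meninges 1 only among the meningeal libraries, at 1.25 CPM, and had 1.97, 1.03 and 8.71 CPM in lung. It was at 0 in all 3 injured libraries, and its edgeR adjusted p was 0.56 after injury and 0.88 between tissues. Ms4a3, Ms4a4a and Ms4a8a stayed under 1 CPM on average in every group.

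Receptors known to pair with Ms4a proteins were Tnfrsf18, which encodes GITR, Fcer1a and Fcer1g of Fc receptors, and Clec7a, the beta-glucan receptor. Tnfrsf18 had 52.8, 52.9 and 108 CPM in uninjured meninges, 165, 88.1 and 102 after injury and 72.7, 99.6 and 128 in lung. The groups overlapped, and its log2 fold change after injury was 0.73 ± 0.37 (SE, edgeR adjusted p = 0.59). None of the 3 tested receptors was called by edgeR in either comparison, with none at an unadjusted p under 0.05.

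Among ILC2 markers, 1 of 12 was called after injury and 1 between tissues (5 at an unadjusted p under 0.05 in each). Over all genes tested 0.192% and 0.635% were called, and 8.94% and 7.98% had such an unadjusted p. The list was drawn up with earlier results of these data known, so these calls are not independent of it. Thy1, a marker of the sort gate, fell after injury (-1.73 ± 0.29, SE, edgeR adjusted p = 0.022), and Areg, the amphiregulin gene, was lower in uninjured meninges than in lung (-3.41 ± 0.57, adjusted p = 0.0072). Il1rl1, the ST2 gene and the most abundant of them, had a log2 fold change of 0.12 after injury and 0.03 between tissues.

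The genes most like Ms4a6b over the 9 libraries, among 8110 others with a mean of at least 10 CPM, were Krr1, Tmem173, Caml, Lias and Xk. Pearson correlations of log2(CPM + 1) were 0.98, 0.94, 0.93, 0.93 and 0.92, as a description over libraries that share their 3 groups. Krr1, a gene of ribosome assembly, had 112, 118 and 128 CPM in uninjured meninges, 94.9, 101 and 101 after injury and 72.7, 52.8 and 89.9 in lung. Krr1 had the same order of groups without overlap, but it was picked for its likeness over these libraries, so this order is no separate result. Its log2 fold change between uninjured meninges and lung was 0.74 ± 0.29. Tmem173, which encodes the DNA-sensing adaptor STING, ran from 57.5 to 66.9 CPM in uninjured meninges, from 41.6 to 57.4 after injury and from 27.8 to 36.1 in lung.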

How the data were processed

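Per the labels, RNA of sorted ILC2s was extracted with the PicoPure kit, amplified with the Ovation RNA-Seq System V2 and sequenced. The authors deposited raw read counts for each gene. The submitters' processing notes name FastQC, STAR, HTSeq and the mm9 build, without versions or roles, and the sources used here do not state strand use. Of 23466 genes, 15969 had a symbol in the table and 7407 took one from a reference list by Ensembl identifier, leaving 90 without.

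Counts were tested with edgeR 4.0.16 (R 4.3.3). The filterByExpr function kept 15117 genes, TMM factors scaled the libraries, and robust quasi-likelihood F tests used all 9 libraries with a mean per group. The common biological coefficient of variation was 0.91. Calls have a Benjamini-Hochberg adjusted p under 0.05 over all genes, and SE is the size of the log2 fold change over the root of its F statistic. The procedure was tested on simulated counts. The genes changed there had a mean of at least 10 CPM, which only Ms4a6b of the members reached. That run therefore says nothing about the scarcer members. Members and lists were chosen with earlier results of these data known. Named were all members, other Ms4a genes of at least 1 CPM in a group, the 5 genes most like Ms4a6b, and from each of the other lists its most abundant and any called gene. A gene that this rule names is not reported here. Exon lengths and 50-base words came from GENCODE M21 and start regions from RefSeq (GRCm38.p6), aligned with Biopython 1.88. No counting coordinates are given, because builds differ. Alternatives were DESeq2 1.42.0, its size factors, no filter, 6 libraries, no robust estimation, a replicate block and leaving out each library.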

Additional observations from a re-analysis of the deposited data

How the results depend on the processing

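Leaving out single libraries gave 18 to 27 genes called after injury against 29 with all 9, and 51 to 196 between uninjured meninges and lung against 96. The lowest of these were without injured meninges 2 (18) and without lung 3 (51), the highest between tissues was without injured meninges 2 (196), and 19 and 53 genes were called without uninjured meninges 2. DESeq2 called 272 and 421 genes, no filter on low counts gave 78 and 193, and fitting only the 6 libraries compared gave 12 and 226. The causes were not tested. No member was called after injury in any of the 15 alternatives, but Ms4a4c did not pass the filter when only 6 libraries were fitted, and DESeq2 gave no adjusted p for Ms4a4c, Ms4a6c and Ms4a6d. Ms4a6b reached an unadjusted p under 0.05 in 5 of the 15. For Ms4a6b the log2 fold change after injury ranged from -1.45 to -0.87 and that between tissues from 2.92 to 4.42 (without lung 3) when single libraries were left out. Over the same fits the change after injury ranged from -1.09 to 0.61 for Ms4a4b, from -2.75 to 1.5 for Ms4a4c, from -7.12 to -0.65 for Ms4a6c (the lowest with no injured count left, so no bound), from -0.86 to 1.73 for Ms4a6d and from -0.48 to 2.15 for Ms4a7. With the replicate number as a block, the change of Ms4a6b after injury was -1.03 (edgeR adjusted p = 0.77), that of Ms4a4c turned to -1.01, and 43 and 136 genes were called. Same-numbered libraries deviated together weakly (correlations of -0.034 to 0.096), so the numbers were not taken to pair them. Without the filter, Ms4a6b after injury had an adjusted p of 0.55. Counts of scarce members differed widely within groups (121, 13 and 7 for Ms4a7 in injured meninges), while library totals ranged from 13407277 to 18253462.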

Other observations

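Tmem176a and Tmem176b, related tetraspan genes that lie outside the Ms4a cluster, were more abundant than any scarce Ms4a gene. Tmem176a had 114, 105 and 109 CPM in uninjured meninges, 90.2, 52.0 and 21.2 after injury and 164, 184 and 123 in lung. The injured libraries lay below the uninjured ones, as they did for 6.79% of all genes tested. All 6 meningeal libraries lay below lung, an order whose share over all genes was not counted. Its log2 fold change after injury was -1.0 ± 0.40 (SE, edgeR adjusted p = 0.50) and that between uninjured meninges and lung was -0.52 ± 0.40 (adjusted p = 0.89), so neither passed. Tmem176b had 74.8, 132 and 124 CPM in uninjured meninges, 53.6, 50.9 and 92.4 after injury and 115, 168 and 80.1 in lung. Its groups overlapped, with a log2 fold change after injury of -0.75 ± 0.36 (adjusted p = 0.57).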
